A study of Mus musculus with 24 samples.

Results

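The 48 genes described here carry out DNA replication or mitosis, and they were taken by gene symbol from a table of 55376 genes counted in 24 bulk mRNA-seq libraries of mouse bone marrow cells. Of these, 26 act in S phase and 22 act in mitosis, and they are grouped below by their 10 roles. All 48 had counts in each of the 24 libraries and passed the filter on low counts in each comparison. Libraries came from HSCs, sorted as Lineage- Sca1+ cKit+ cells without CD34 and Flk2 and with CD150, and from MPP3 cells, the multipotent progenitors that lean towards granulocytes and monocytes. HSCs of young mice were sampled from Y-WT (n = 4) and Y-TTPΔARE (n = 4) animals, MPP3 cells of young mice from Y-WT (n = 4) and Y-TTPΔARE (n = 4) animals, and HSCs of middle-aged mice from M-WT (n = 5) and M-TTPΔARE (n = 3) animals. TTPΔARE mice are homozygous for an allele of Zfp36 without the AU-rich element of its 3′ UTR, which lengthens the life of the mRNA of tristetraprolin (TTP), a protein that hastens the decay of other mRNAs. The allele is carried by every cell of the body and is not limited to blood cells, and the WT mice were littermates. The mice were male by the study's methods and untreated by the labels. Labels do not say whether each library came from its own mouse, so that the p-values below measure only the spread between libraries.

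Cells that divide copy their DNA in S phase and then separate the copies in mitosis. Origins are licensed by the loading of the MCM helicase in G1, the helicase is then activated and the forks copy the DNA, and nucleotides, clamps and chromatin factors are supplied at that time. In G2 and mitosis, Cdk1 with its B cyclins and the Polo and Aurora kinases start the assembly of the spindle, the checkpoint delays separation until each chromosome is attached, and the anaphase-promoting complex (APC/C) then ends mitosis. E2F factors are known to drive many S-phase genes, and the DREAM and MuvB complexes many mitosis genes through the CHR element. Most HSCs of an adult mouse rest outside the cell cycle, whereas multipotent progenitors divide more often. A higher level of these mRNAs in a bulk sample can mean more cells in cycle or more mRNA per cell, and these cannot be told apart here.

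The promoters of these genes show the sequence elements that the literature ties to S phase and to mitosis, so the copies in the genes of largest cell type difference are shown first. Promoter sequences are those of RefSeq on GRCm38.p6, from 250 bases before to 50 bases after each transcript start, and 40 of the 48 genes were matched, with 44 promoters. For the E2F element the letters TTGGCGC were searched on both strands, and so were its related form TTCCCGC, the form TTCGCGC, and last the form TTGCCGC. These letters were present in 17 of 25 S-phase promoters (68.0%) and in 3 of 19 mitosis promoters (15.8%). Of all 32851 promoters 9.57% held them, and of the 12385 promoters of genes above the limit on average level 16.5% did. The following 28-base windows, in capitals the E2F letters on the strand of the gene, come from the 5 S-phase genes with the letters that differed most between MPP3 cells and HSCs of WT mice.
Rrm2: accaacctcaGCGGCAAcgcccgcccgg
Uhrf1: gctttctcgcTTCCCGCcacagcgccag
Cdc6: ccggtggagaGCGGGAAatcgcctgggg
Mcm5: aagaactttcGCGCCAAaacgtccagcc
Hells: aaagagaagcGCGCGAAtttcttgcgcc
These windows lie at chr12:24708009-24708036 (plus strand) for Rrm2, chr17:56303279-56303306 (plus strand) for Uhrf1, chr11:98908003-98908030 (plus strand) for Cdc6, chr8:75109350-75109377 (plus strand) for Mcm5 and chr19:38930937-38930964 (plus strand) for Hells. Each lies in the promoter window, and its sequence runs 5′ to 3′ on the strand of the gene. The S-phase genes without these letters in the window were Ccne1, Cdc45, Mcm2, Pcna, Slbp, Tk1 and Tyms.

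The CHR element (the letters TTTGAA, or else the letters TTCGAA, both strands) had the opposite distribution. It was present in 15 of 19 mitosis promoters (78.9%) and in 4 of 25 S-phase promoters (16.0%), against 19.2% of all promoters and 14.3% of those of genes above the limit. CCAAT, the letters bound by NF-Y, was present in 89.5% of mitosis promoters, 64.0% of S-phase promoters and 37.4% of all promoters. The following windows show, in capitals, the CHR letters in the 5 mitosis genes with a CHR of largest cell type difference.
Ube2c: gagggttgcaaTTCAAAcgcgggcggcg
Kif11: cgtctccatttTTCAAAattgaggcgcg
Mki67: cgccgttttggTTTGAAtcgggcgggct
Bub1: tgcgcggggaaTTCGAAtcgccggcggc
Plk1: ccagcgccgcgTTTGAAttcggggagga
They lie at chr2:164769889-164769916 (plus strand) for Ube2c, chr19:37376352-37376379 (plus strand) for Kif11, chr7:135716461-135716488 (minus strand) for Mki67, chr2:127831829-127831856 (minus strand) for Bub1 and chr7:122159454-122159481 (plus strand) for Plk1. The copies of Bub1 and Plk1 start 15 and 31 bases after the transcript start, and those of Ube2c, Kif11 and Mki67 before it. Birc5, Ccnb1, Cenpe and Nusap1 had no CHR letters in the window. E2F forms share bases with each other, and CCAAT can share bases with an E2F form on the other strand. A match is a run of letters and was not tested as a binding site.

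Total counts ran from 24261371 to 39934554 per library. Zfp36 was higher in TTPΔARE than in WT libraries in each comparison, without overlap of the groups, by 0.96 on the log2 scale in young HSCs (edgeR adjusted p = 0.238), by 0.97 in middle-aged HSCs (edgeR adjusted p = 0.00200) and by 1.80 in MPP3 cells (edgeR adjusted p = 6.46e-04). Labels of cell type were checked against markers. The HSC marker Slamf1 (CD150) had 53.8 to 60.6 CPM, the counts scaled to library size, in Y-WT HSCs and 1.10 to 3.63 in Y-WT MPP3 cells, and the myeloid gene Mpo had 0.996 to 5.58 and 264 to 1182. Flt3, which codes for Flk2, had 440 to 557 CPM in Y-WT MPP3 cells. Markers of lymphoid-primed progenitors, Flt3 among them, summed to 525 to 719 CPM in Y-WT MPP3 cells and 77.8 to 111 CPM in Y-WT HSCs. These values do not set the MPP3 cells apart from lymphoid-primed progenitors. Some libraries stood apart. Genes of olfactory and vomeronasal receptors summed to 597 to 983 CPM in Y-WT HSC replicates 2 to 4 and to 18.8 to 542 CPM in the other 21 libraries. Immunoglobulin and other B cell marker genes summed to 74443 CPM in Y-WT MPP3 replicate 1 and to 47117 CPM in a Y-WT HSC library. Y-TTPΔARE MPP3 replicate 4 had the lowest scaling factor (0.731). Title numbers run from 1 to 8 in middle-aged HSCs, from 11 to 18 in young HSCs and from 21 to 28 in MPP3 cells, so that each age and each cell type was a numbered set of its own, and the set cannot be told apart from the age or cell type. CPM values below were scaled over all 24 libraries, whereas each fold change comes from the scaling of its own comparison.

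The 26 S-phase genes summed to 2763 ± 362 CPM (SD, n = 4) in Y-WT HSCs and 7126 ± 640.0 CPM in Y-WT MPP3 cells. In middle-aged HSCs the sum was 2185 ± 306 CPM in M-WT (SD, n = 5) and 1759.9 ± 89.7 CPM in M-TTPΔARE (SD, n = 3). The 22 mitosis genes summed to 796 ± 112 CPM in Y-WT HSCs, 3844 ± 637 CPM in Y-WT MPP3 cells and 433 ± 47.8 CPM in M-WT HSCs. MPP3 libraries lay above all HSC libraries on both sums, and middle-aged HSCs below all young HSCs on the mitosis sum.

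The balance of the phases also differed between groups, and it is given as a description. The mitosis sum was 25.1, 21.6, 35.9 and 35.3% of the S-phase sum in the 4 Y-WT HSC libraries and 50.3, 39.4, 70.6 and 58.7% in the 4 Y-WT MPP3 libraries. In Y-TTPΔARE libraries it was 26.8, 26.9, 36.5 and 34.3% in HSCs and 47.9, 44.5, 55.4 and 51.8% in MPP3 cells. Middle-aged HSCs had 21.8, 18.5, 17.9, 20.6 and 20.9% in M-WT and 26.3, 23.1 and 26.6% in M-TTPΔARE. All MPP3 libraries lay above all HSC libraries, and the M-TTPΔARE libraries lay above the M-WT libraries. In each of the 4 young groups, replicates 3 and 4 lay above replicates 1 and 2.

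**Figure D1:**
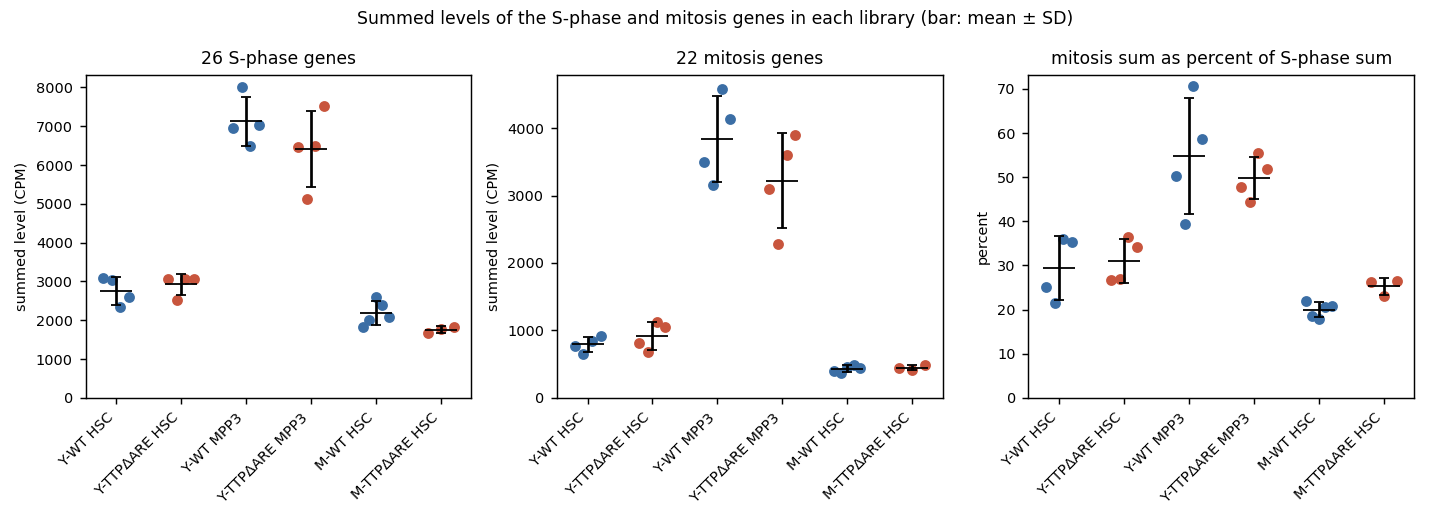
Summed levels in CPM of the 26 S-phase genes and the 22 mitosis genes, and the mitosis sum as a percent of the S-phase sum, in each of the 24 libraries by group, with WT in blue and TTPΔARE in red and the black bars showing mean ± SD. MPP3 libraries are highest on all 3 axes, and the S-phase sums of M-TTPΔARE HSCs (1660 to 1833 CPM) reach those of M-WT HSCs (1829 to 2601 CPM) only at the lowest M-WT library.

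Per kb of exon sequence, the most abundant members in Y-WT HSCs were Mcm6 (99.8 CPM per kb), Mcm3 (70.2), Pcna (62.4) and Mcm7 (48.5). The same 4 genes led in Y-WT MPP3 cells, with 224.8, 169.8, 135.9 and 126.1 CPM per kb. Cenpf, a large kinetochore protein, was lowest in Y-WT HSCs at 1.28 CPM per kb, and Ccne1 was lowest in Y-WT MPP3 cells at 6.42.

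The first comparison asked how far the resting stem cells and the dividing progenitors of young WT mice differed in these genes. All 48 genes were higher in MPP3 cells than in HSCs, by 1.57-fold to 6.18-fold and by 3.31-fold at the median. The mitosis genes differed more (4.82-fold at the median) than the S-phase genes (2.56-fold), and the mitosis range of 1.64 to 2.63 on the log2 scale overlapped the S-phase range of 0.66 to 2.16. Calling a gene required 3 limits to be passed, which were 0.05 for the adjusted p of edgeR's quasi-likelihood test, 1.2 for the fold change and 1.5 for the average logCPM. All 48 were called, against 10.3% of the 26337 genes tested that were called higher and 20.1% of the 13467 genes over the logCPM limit. In all 48 each MPP3 library lay above each HSC library, which held for 33.1% of the genes over the limit. The median over those genes was a log2 fold change of 0.11, against 1.73 for the 48 genes.

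Among the regulators that start S phase, all 3 were called higher. Ccne2, the E-type cyclin that activates Cdk2 at the G1/S border, had 31.2, 25.3, 24.7 and 25.4 CPM in Y-WT HSCs and 82.2, 75.2, 69.1 and 89.3 CPM in Y-WT MPP3 cells. Each MPP3 library exceeded the highest HSC library, replicate 1, and the log2 difference was 1.51 ± 0.14 (SE, edgeR adjusted p = 1.87e-06). Ccne2 shares 17.4% of its exon bases with Ints8 on the opposite strand, and the strand setting of the counting is not stated. The other E-type cyclin, Ccne1, was scarcer, with 9.41, 4.97, 5.61 and 6.70 CPM in HSCs and 18.7, 20.6, 16.0 and 13.1 CPM in MPP3 cells. Its 4 HSC libraries lay below the lowest MPP3 library (1.29 ± 0.26, SE, edgeR adjusted p = 0.00196). Chek1, the kinase that guards stalled forks, differed by 1.44 on the log2 scale.

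The 8 genes of origin licensing and the MCM helicase rose by a median of 1.29 on the log2 scale. Cdc6, an ATPase that loads the helicase onto origins, had 38.4, 38.0, 29.4 and 25.1 CPM in HSCs and 119, 128, 107 and 118 CPM in MPP3 cells. The HSC libraries lay far below all MPP3 libraries (1.80 ± 0.18, SE, edgeR adjusted p = 2.72e-06). Mcm5, a subunit of the 6-part helicase ring, had 173, 181, 131 and 141 CPM in HSCs and 473, 560.1, 420.3 and 466 CPM in MPP3 cells. The groups did not overlap (1.57 ± 0.15, SE, edgeR adjusted p = 2.38e-06). The other ring subunits differed by 1.12 (Mcm6), 1.14 (Mcm4), 1.22 (Mcm3), 1.26 (Mcm2) and 1.33 (Mcm7), a narrow range. Mcm7 shares 12.6% of its exon bases with other genes. Cdt1, which works with Cdc6 in loading, differed by 1.35.

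At the replication fork, all 8 genes were called higher, with a median of 1.30. Cdc45, which joins the MCM ring and the GINS complex in the active helicase, had 29.9, 25.4, 20.6 and 23.3 CPM in HSCs and 78.3, 93.8, 72.0 and 76.5 CPM in MPP3 cells. All MPP3 libraries were higher (1.64 ± 0.20, SE, edgeR adjusted p = 2.13e-05). Its partners in GINS differed from each other. Gins1 rose by 1.32, near the median, and Gins2 by 0.66, the smallest difference of the 48. Gins2 shares 67.3% of its exon bases with Gse1 on the opposite strand, so that its counts could hold reads of that gene. Pola1 (2.83-fold) and Prim1 (2.42-fold), the polymerase and primase that begin each new strand, lay on either side of the median of all S-phase genes. Pcna, the sliding clamp, rose by 1.07, Fen1, the nuclease that trims Okazaki fragments, by 1.36, and Rpa2, a subunit of the protein that coats unwound DNA, by 0.99. Fen1 shares 84.2% of its exon bases with genes on the opposite strand, most of them with Gm10143, and Pcna has 2 pseudogenes, so that both levels are uncertain.

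Of the enzymes that supply nucleotides, all 4 were called higher. Rrm2, the S-phase subunit of ribonucleotide reductase, had the largest S-phase difference, with 48.6, 42.5, 40.7 and 55.1 CPM in HSCs and 208, 221, 210.5 and 226 CPM in MPP3 cells. The groups were far apart (2.16 ± 0.20, SE, edgeR adjusted p = 1.90e-06). Rrm1, the other subunit, rose by less (2.75-fold), Tyms, which makes thymidylate, by 2.82-fold and Tk1, which salvages thymidine, by 3.30-fold. Uhrf1, which keeps DNA methylation on newly copied DNA, had 93.9, 92.9, 81.6 and 93.1 CPM in HSCs and 307, 362, 345 and 379 CPM in MPP3 cells. Y-WT HSC replicate 3 was the lowest of its group, and all MPP3 libraries lay above the HSC libraries (1.90 ± 0.14, SE, edgeR adjusted p = 2.52e-07). Hells, a chromatin remodeller, rose by 1.55 and Slbp, which binds the stem-loop of histone mRNAs, by 0.95.

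All 22 mitosis genes were called higher, and their 5 role groups had medians between 2.21 and 2.41 on the log2 scale. Mki67, the gene of the proliferation marker Ki-67, had 54.9, 40.2, 54.8 and 67.2 CPM in HSCs and 305, 244, 351 and 351 CPM in MPP3 cells. Each MPP3 library lay far above the HSC libraries (2.48 ± 0.20, SE, edgeR adjusted p = 5.71e-07). Top2a, the topoisomerase that untangles copied DNA, had 117, 107, 123 and 121 CPM in HSCs and 554, 519, 669 and 705 CPM in MPP3 cells, again with no overlap (2.34 ± 0.16, SE, edgeR adjusted p = 2.02e-07).

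The kinases and cyclins of mitotic entry rose by a median of 2.29. Plk1, the Polo kinase, had 12.9, 8.75, 14.2 and 16.6 CPM in HSCs and 61.0, 59.0, 93.4 and 76.3 CPM in MPP3 cells. In MPP3 cells replicate 3 was the highest and replicate 2 the lowest, and the lowest still exceeded all HSC libraries (2.42 ± 0.24, SE, edgeR adjusted p = 2.65e-06). Ccnb1, a B-type cyclin with a pseudogene copy, had 27.8, 23.4, 32.1 and 31.4 CPM in HSCs and 115, 126, 201 and 153 CPM in MPP3 cells. Its groups did not overlap (2.33 ± 0.23, SE, edgeR adjusted p = 2.51e-06). Cdk1, the kinase that B cyclins activate, had 44.6, 40.2, 40.5 and 47.0 CPM in HSCs and 166, 158, 185 and 159 CPM in MPP3 cells, and it rose least of this group (1.90 ± 0.24, SE, edgeR adjusted p = 2.92e-05). Ccnb2 rose by 2.27, Aurka, the Aurora kinase of the spindle poles, by 2.31 and Ccna2, the A-type cyclin of S phase and G2, by 2.15. Ccna2 shares 12.5% of its exon bases with Exosc9 on the opposite strand.

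Ube2c, the ubiquitin-conjugating enzyme of APC/C, had the largest difference of all 48, with 11.6, 11.3, 19.6 and 18.1 CPM in HSCs and 79.1, 74.4, 134 and 97.4 CPM in MPP3 cells. Replicates 3 and 4 were the higher libraries in both cell types, and the groups did not overlap (2.63 ± 0.31, SE, 6.18-fold, edgeR adjusted p = 1.43e-05). Ube2c shares 22.8% of its exon bases with Tnnc2 on the opposite strand. Bub1 (2.44) and Bub1b (2.18), kinases of the spindle checkpoint, and Cdc20 (2.04), the activator of APC/C that the checkpoint holds back, were also called higher.

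Aurkb, the kinase of the chromosomal passenger complex, had 23.3, 21.6, 25.7 and 32.6 CPM in HSCs and 128, 122, 152 and 153 CPM in MPP3 cells. Here too replicates 3 and 4 were the higher ones in both groups, without overlap between the cell types (2.38 ± 0.22, SE, edgeR adjusted p = 1.56e-06). Birc5 (survivin), of the same complex, rose by 2.23, Cenpe, a kinetochore motor, by 2.12 and Cenpf by 2.34.

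Kif11, the motor that pushes the spindle poles apart, had 36.8, 29.1, 37.8 and 44.4 CPM in HSCs and 180.4, 181, 244 and 253 CPM in MPP3 cells. The 4 HSC libraries lay below all MPP3 libraries (2.49 ± 0.23, SE, edgeR adjusted p = 1.33e-06). Tpx2, an activator of Aurora A, rose by 2.20, Nusap1, which binds spindle microtubules, by 2.27 and Prc1, which bundles the midzone, by 2.21. The cytokinesis motors Kif20a (1.73) and Kif23 (1.64) had the smallest differences of the mitosis genes, and 29.3% of the exon bases of Kif20a are shared with Cdc23 on the opposite strand. Across the mitosis genes with a CHR the median was 2.33 (n = 14) and across those without it 2.25 (n = 4), and the medians of S-phase genes with and without E2F letters were 1.44 (n = 15) and 1.29 (n = 7). With library totals in place of scaling factors, the median over the genes above the limit moved from 0.11 to -0.09 and that of the 48 genes from 1.73 to 1.52.

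**Figure D2:**
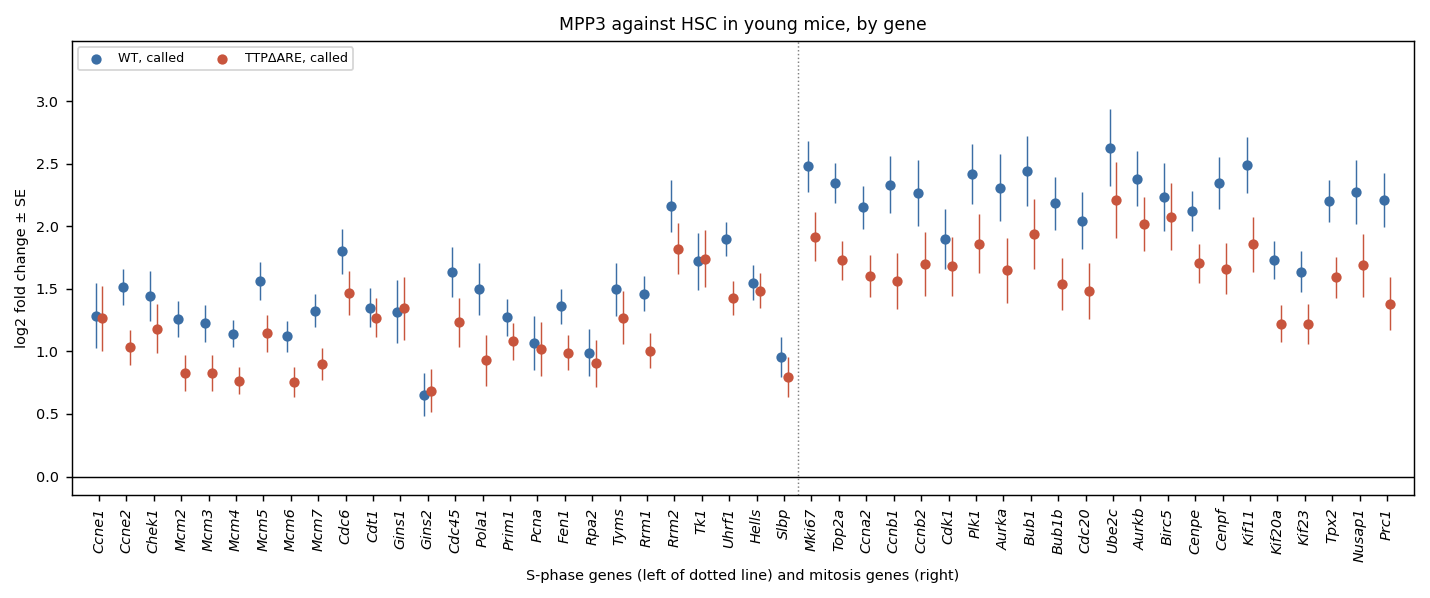
Log2 fold change ± SE of MPP3 against HSC libraries of young mice for each of the 48 genes, with WT in blue and TTPΔARE in red and filled circles for called genes. All circles are filled and above 0, and mitosis genes (right of the dotted line) reach higher than S-phase genes.

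In TTPΔARE mice the same 48 genes were called higher in MPP3 cells than in HSCs, with a median difference of 2.65-fold, 2.08-fold in S-phase and 3.21-fold in mitosis genes. Of the 26337 genes tested 7.02% were called higher, and 13.7% of the 13467 over the limit. None of the 48 overlapped between the cell types, against 24.5% of the genes over the limit that lay higher in the same way. The largest difference was again that of Ube2c, with 18.0, 16.2, 28.5 and 22.8 CPM in HSCs and 89.2, 58.1, 102 and 189 CPM in MPP3 cells. Its MPP3 replicate 4 was far above the other MPP3 libraries, and all 4 exceeded the HSC libraries (2.21 ± 0.30, SE, edgeR adjusted p = 7.04e-05). The smallest was that of Gins2 (0.68). All 48 calls were also made without Y-TTPΔARE MPP3 replicate 2 (median 1.54) or without replicate 4 (median 1.41).

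Whether the cell type difference depended on genotype was tested as an interaction. None of the 48 was called by edgeR or DESeq2, and 0.383% and 0.0456% of the 26337 genes were called higher and lower. At an unadjusted p under 0.05, 15 genes had a smaller difference in TTPΔARE than in WT mice (7 S-phase and 8 mitosis genes) and none a larger one, against 13.6% of the genes over the limit with a negative and 3.85% with a positive interaction at that level. Prc1 had 47.4, 34.4, 57.2 and 62.2 CPM in Y-TTPΔARE HSCs and 155, 103, 170.5 and 148 CPM in Y-TTPΔARE MPP3 cells, against 42.5, 29.9, 50.9 and 43.7 CPM in Y-WT HSCs and 173, 152, 258 and 217 CPM in Y-WT MPP3 cells. The lowest Y-WT MPP3 library lay within the range of the Y-TTPΔARE MPP3 libraries, and the interaction was -0.83 ± 0.29 (SE, edgeR adjusted p = 0.288). Top2a had 132, 97.5, 162 and 141 CPM in Y-TTPΔARE HSCs and 507, 358, 547 and 532 CPM in Y-TTPΔARE MPP3 cells, and its MPP3 values overlapped those of Y-WT, with an interaction of -0.62 ± 0.22 (SE, edgeR adjusted p = 0.288). With the replicate number as a block, Prc1 was called (-0.82, edgeR adjusted p = 0.0319), and no other gene of the 48 was. Prc1 shares 11.1% of its exon bases with Rccd1 on the opposite strand, so that its counts could hold reads of that gene.

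In young HSCs no difference between TTPΔARE and WT was called in these genes. The same fit did not call Zfp36 itself (0.96, edgeR adjusted p = 0.238). The study reported many more changed transcripts in this comparison, Zfp36 among them. The lack of calls here therefore does not show that the genotypes are alike. None of the 48 genes was called higher or lower, against 0.0123% of the 24381 genes in each direction, none had an unadjusted p under 0.05, and none had groups that did not overlap. DESeq2 called none either. Of the genes over the limit, 5.47% were higher and 4.79% lower at an unadjusted p under 0.05, and groups did not overlap in 6.61% that were higher and 1.74% that were lower. The log2 fold changes ran from -0.20 to 0.45 with a median of 0.10, and 17 of 26 S-phase and 21 of 22 mitosis genes had a positive value. Of the genes over the limit 58.4% had a positive value, and their median was 0.03. The S-phase gene Cdc45 had 29.9, 25.4, 20.6 and 23.3 CPM in Y-WT and 33.2, 24.4, 35.5 and 33.5 CPM in Y-TTPΔARE HSCs. The ranges overlapped and the difference was 0.31 ± 0.15 (SE, edgeR adjusted p = 0.699). Kif23, of the cytokinesis machinery, had 48.5, 31.6, 42.0 and 46.3 CPM in Y-WT and 43.4, 50.1, 54.7 and 64.5 CPM in Y-TTPΔARE HSCs. Here too the groups overlapped (0.29 ± 0.14, SE, edgeR adjusted p = 0.701). Mki67 had 56.8, 40.9, 80.6 and 64.9 CPM in Y-TTPΔARE HSCs, a difference of 0.12 ± 0.19 (SE, edgeR adjusted p = 0.825) that turned to -0.03 without Y-TTPΔARE HSC replicate 3. Erythroid marker genes summed to 155 to 409 CPM in Y-TTPΔARE and 67.9 to 83.0 CPM in Y-WT HSCs and T and NK cell markers to 96.4 to 180.3 and 63.6 to 74.1 CPM, and their part in these values was not tested.

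In middle-aged HSCs 3 S-phase genes, Gins2, Mcm6 and Mcm3, were called lower in TTPΔARE, and no gene of the 48 was called higher. All 26 S-phase genes had negative log2 fold changes with a median of -0.38, whereas the mitosis genes had a median of -0.01 with 9 of 22 above 0. Of the genes over the limit 41.5% were above 0, and their median was -0.03. Of the 21136 genes tested 0.71% were called lower and 0.7% higher, and of those over the limit 1.12% were called lower. Gins2 had 67.0, 64.9, 80.2, 73.8 and 72.6 CPM in M-WT and 59.5, 58.3 and 58.0 CPM in M-TTPΔARE HSCs. The call was -0.34 ± 0.07 (SE, edgeR adjusted p = 0.0470), and the counts of Gins2 could hold reads of Gse1, as given above. Mcm6 had 309.8, 356, 430.2, 408 and 362 CPM in M-WT and 270.4, 303 and 298 CPM in M-TTPΔARE HSCs. It fell by 0.41 ± 0.09 on the log2 scale (SE, edgeR adjusted p = 0.0498). The third call was Mcm3 (-0.39 ± 0.08, SE, edgeR adjusted p = 0.0499). In all 3 of these genes each M-TTPΔARE library lay below each M-WT library. Sums of marker genes also lay apart between the genotypes. HSC markers summed to 4525 to 4828 CPM in M-TTPΔARE and 4031 to 4522 CPM in M-WT HSCs, with 1 of 13 called higher, MPP3 and myeloid progenitor markers to 248 to 262 and 276 to 328 CPM with none called, and megakaryocyte markers to 115 to 142 and 163 to 199 CPM with 1 of 4 tested called lower, in each case without overlap, and their part in the calls was not tested.

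At an unadjusted p under 0.05, 19 S-phase genes and Cenpe were lower and Ube2c was higher, against 11.9% of the genes over the limit that were lower and 7.83% that were higher at that level. Groups did not overlap in 10 S-phase genes and in Cenpe, which were lower, against 4.35% of the genes over the limit. Mcm5 had 83.4, 106, 159, 136 and 116 CPM in M-WT and 84.4, 90.4 and 89.1 CPM in M-TTPΔARE HSCs. M-WT replicate 3 was the highest library, and the difference of -0.50 ± 0.16 (SE, edgeR adjusted p = 0.153) was not called. Ccne1 had 4.23, 3.77, 7.16, 4.58 and 4.59 CPM in M-WT and 2.11, 3.52 and 4.00 CPM in M-TTPΔARE HSCs. M-WT replicate 3 was again the highest, and the groups overlapped (-0.64 ± 0.25, SE, edgeR adjusted p = 0.248). Among mitosis genes, Mki67 had 35.0, 24.0, 37.1, 35.9 and 34.7 CPM in M-WT and 29.0, 27.4 and 32.0 CPM in M-TTPΔARE HSCs, with overlap (-0.22 ± 0.13, SE, edgeR adjusted p = 0.430). The values of Ccnb1 were 17.2, 13.4, 17.7, 18.7 and 17.6 CPM in M-WT and 16.3, 17.5 and 17.6 CPM in M-TTPΔARE HSCs, and its difference was near 0 (-0.03 ± 0.11, SE). The number of called genes moved with the settings. It was 0 with the replicate number as a block, with library totals and with all 24 libraries in the fit, and 1 with the likelihood ratio test. The block also left out M-WT replicates 4 and 5, whose numbers do not occur in M-TTPΔARE. The number called was also 0 without M-WT replicate 4 or 5 or without any M-TTPΔARE replicate, and it was 8 without M-WT replicate 1 or 2, 14 with DESeq2, and 17 without the filter on low counts.

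In MPP3 cells none of the 48 genes was called by edgeR or DESeq2, against 0.137% of the 19023 genes called lower and 1.58% called higher. Log2 fold changes had a median of -0.24, with -0.11 in S-phase and -0.34 in mitosis genes. At an unadjusted p under 0.05, 9 were lower (Rrm1, Uhrf1, Mki67, Top2a, Ccna2, Bub1b, Kif11, Tpx2 and Prc1) and none higher, against 6.18% and 8.98% of the genes over the limit. Groups did not overlap in Mcm4, Pola1 and Rrm1, which were lower, against 6.66% of the genes over the limit. Tpx2 had 151, 135, 189 and 169 CPM in Y-WT and 102, 92.6, 146 and 145 CPM in Y-TTPΔARE MPP3 cells. Replicate 2 was the lowest library of TTPΔARE, and the groups overlapped (-0.45 ± 0.16, SE, edgeR adjusted p = 0.287). Uhrf1 had 307, 362, 345 and 379 CPM in Y-WT and 290.4, 227, 308 and 251 CPM in Y-TTPΔARE MPP3 cells, and the groups overlapped (-0.40 ± 0.16, SE, edgeR adjusted p = 0.341). Myeloid progenitor markers summed to 590.5 to 1849.5 CPM in Y-WT and 1502 to 3092 CPM in Y-TTPΔARE MPP3 cells, and markers of the LSK gate to 3459 to 3750.2 and 2974 to 3009.5 CPM. Erythroid markers summed to 61.7 to 79.9 and 111 to 245 CPM, with 2 of 10 called higher. Megakaryocyte markers summed to 139 to 154 and 82.3 to 96.6 CPM, with 1 of 4 tested called lower. Lymphoid-primed markers summed to 525 to 719 and 812 to 1007 CPM, with none called. Of these sums only the myeloid ones overlapped, and the part of the markers in the values above was not tested.

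**Figure D3:**
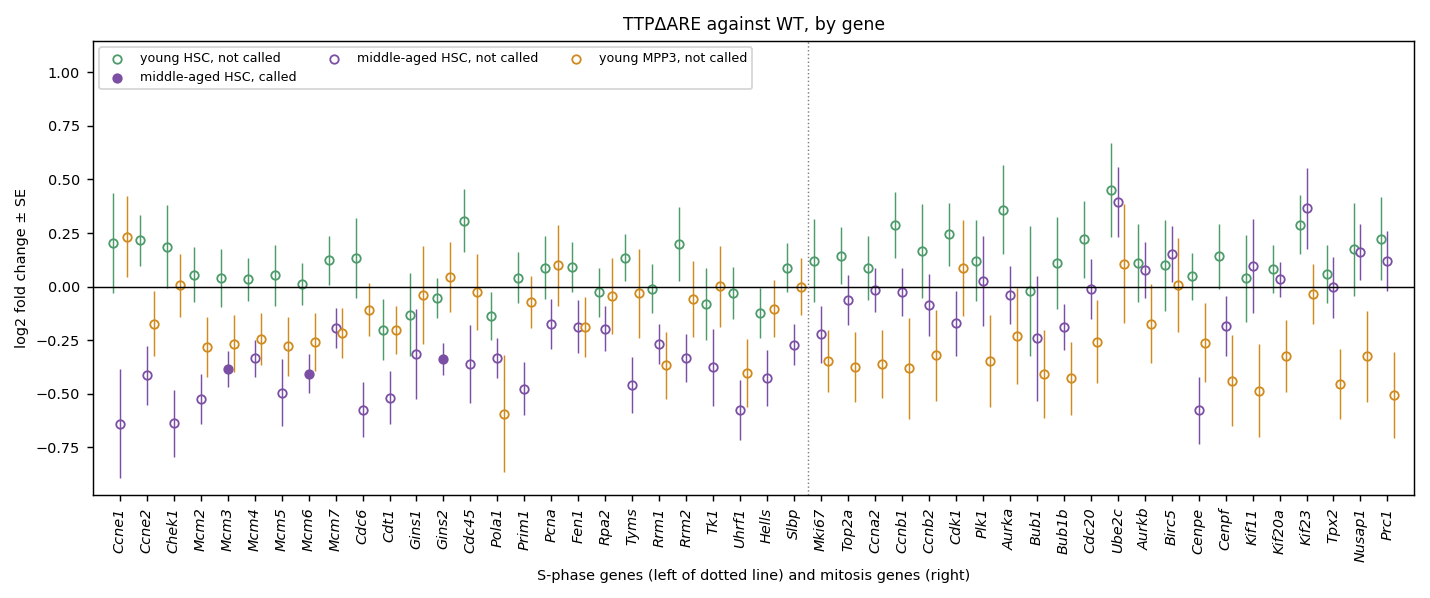
Log2 fold change ± SE of TTPΔARE against WT for each of the 48 genes in young HSCs (green), middle-aged HSCs (purple) and young MPP3 cells (orange), with filled circles for called genes. The 3 filled circles are Mcm3, Mcm6 and Gins2 in middle-aged HSCs, and the purple circles lie below 0 for all S-phase genes and around 0 for most mitosis genes.

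The Y-TTPΔARE MPP3 libraries differed among themselves. Replicate 2 lay below the other 3 libraries in 47 of 48 genes, by log2 ratios to their mean from -1.12 (Ube2c) to 0.08 (Pola1). Replicate 4 lay above the other 3 in 31 genes, with log2 ratios from -0.92 (Pola1) to 1.19 (Ube2c). In replicate 4 the ratio was related to gene length, with a median of 0.63 in genes with exons below 4238 bases in all and of 0.17 in longer ones, and Spearman's rho across the 48 genes was -0.49, against 0.30 to 0.43 in replicates 1 to 3. Replicate 4 is part of the mean that each of replicates 1 to 3 was set against. Their positive values are therefore not independent of the negative value of replicate 4. The genes are not independent replicates and share the depth of each library. Among Y-WT MPP3 libraries rho ran from -0.13 to 0.34. Without replicate 4 the median genotype difference in MPP3 cells was -0.26, and without replicate 2 it was -0.16, with no gene called in either case. Cdk1 is an example, with 153, 102, 183 and 309 CPM in the Y-TTPΔARE MPP3 libraries. Its genotype difference of 0.09 ± 0.23 (SE) turned to -0.18 without replicate 4.

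**Figure D4:**
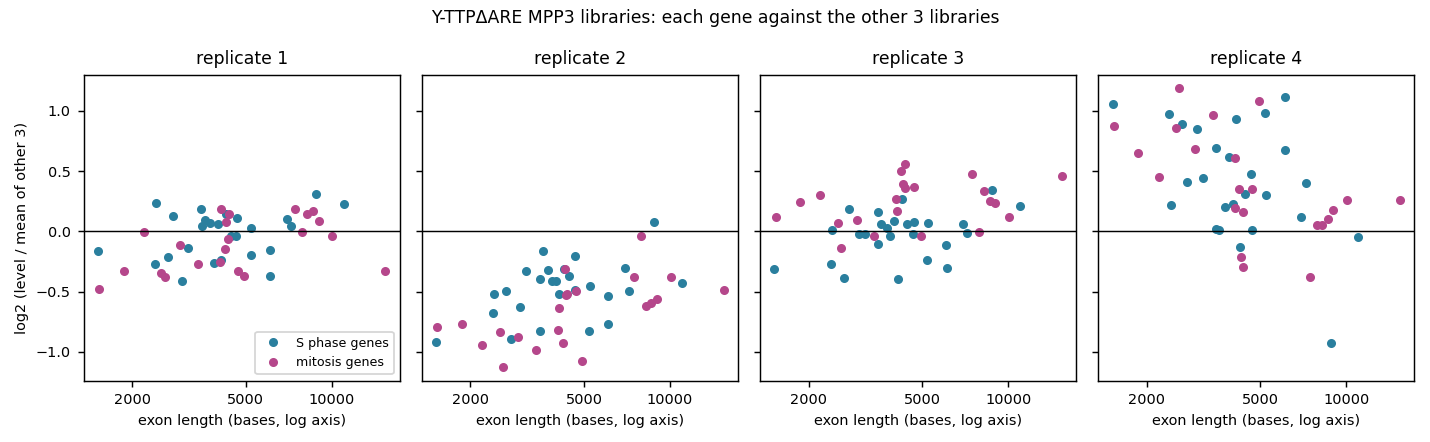
Log2 ratio of each gene's CPM to the mean of the other 3 Y-TTPΔARE MPP3 libraries, against the exon length of the gene in bases on a log axis, for replicates 1 to 4, with S-phase genes in blue and mitosis genes in magenta. Replicate 2 lies below 0 for all but Pola1, and replicate 4 falls from short to long genes.

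Age was compared within each genotype. In WT HSCs, 37 of the 48 genes were called lower in middle-aged than in young mice (16 S-phase and 21 mitosis genes) and none was called higher. Mitosis genes differed by a median of -0.95 and S-phase genes by -0.42 on the log2 scale. Of the 28189 genes tested 3.07% were called lower and 8.57% higher, and of those over the limit 6.32% were called lower. Groups did not overlap in 27 genes that were lower (7 S-phase and 20 mitosis genes), against 5.05% of the genes over the limit. Among the 11 genes not called were Ccne1, Chek1, Mcm2, Mcm3, Mcm5, Mcm7, Gins2, Cdc45, Pola1 and Pcna of S phase and Kif23 of mitosis, and only Gins2 had a positive difference (0.15).

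Aurkb had 23.3, 21.6, 25.7 and 32.6 CPM in Y-WT and 12.1, 8.41, 11.5, 10.8 and 10.8 CPM in M-WT HSCs. All 5 middle-aged libraries lay below all young ones (-1.25 ± 0.16, SE, edgeR adjusted p = 6.16e-05). Tpx2 had 31.8, 33.4, 33.9 and 36.6 CPM in Y-WT and 15.1, 14.3, 21.1, 17.9 and 14.3 CPM in M-WT HSCs, likewise without overlap (-1.02 ± 0.13, SE, edgeR adjusted p = 7.75e-05). The checkpoint kinase Bub1 had the largest fall, by 1.34 on the log2 scale. Mki67 fell by 0.68 (edgeR adjusted p = 0.0106) and Top2a by 0.98. Without Y-WT HSC replicate 4 the Mki67 difference was -0.51 and no longer called (edgeR adjusted p = 0.0535). In S phase, Rrm2 had 26.6, 21.2, 30.6, 28.8 and 27.8 CPM and Ccne2 16.9, 17.6, 23.5, 22.9 and 15.8 CPM in M-WT HSCs. They fell by 0.77 (edgeR adjusted p = 0.00179) and 0.45 (edgeR adjusted p = 0.0165).

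The count of calls in WT was 19 with the replicate number as a block (1 S-phase and 18 mitosis genes), and it ran from 23 to 40 when single libraries were left out (23 without M-WT replicate 1, 2 or 5 and 24 without Y-WT replicate 1). The block also left out the libraries whose number was not found in every group of the fit. Over all alternatives 18 to 22 mitosis genes and 1 to 23 S-phase genes were called. Beside these values, HSC markers summed to 4031 to 4522 CPM in M-WT and 2891 to 3612 CPM in Y-WT HSCs, with 10 of 13 called higher. MPP3 and myeloid progenitor markers were also higher in sum, with 276 to 328 CPM in M-WT and 196 to 215 CPM in Y-WT HSCs. Of the 10 tested, 2 were called higher and 2 lower. T and NK cell markers summed to 10.7 to 24.2 and 63.6 to 74.1 CPM. The part of these markers in the age differences was not tested.

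In TTPΔARE HSCs age differences were called in more genes. All but Gins2 (-0.18) and Kif23 (-0.37) were called lower in M-TTPΔARE, that is 46 genes (25 S-phase and 21 mitosis genes), with medians of -0.83 and -1.15. Of the 28189 genes 2.76% were called lower and 3.11% higher, and of those over the limit 5.69% were called lower. The 46 genes also had groups without overlap, against 12.7% of the genes over the limit. Cenpe, the kinetochore motor, had 18.5, 18.6, 21.2 and 21.9 CPM in Y-TTPΔARE and 7.29, 8.41 and 6.50 CPM in M-TTPΔARE HSCs. The groups were far apart (-1.47 ± 0.15, SE, edgeR adjusted p = 1.60e-05). Tyms, of thymidylate synthesis and with a pseudogene, had 72.2, 62.2, 84.6 and 83.9 CPM in Y-TTPΔARE and 35.0, 32.0 and 36.8 CPM in M-TTPΔARE HSCs, also without overlap (-1.16 ± 0.14, SE, edgeR adjusted p = 1.02e-04). Mcm5 had 176, 129, 179.6 and 185 CPM in Y-TTPΔARE HSCs, of which replicate 2 was the lowest, and all 4 exceeded the M-TTPΔARE libraries (-0.96 ± 0.18, SE, edgeR adjusted p = 0.00259). Alternatives called 33 to 46 of the 48. With the replicate number as a block 13 S-phase and 20 mitosis genes were called, and neither Mcm5 (-0.88, edgeR adjusted p = 0.0635) nor Ccne1 (-1.18, edgeR adjusted p = 0.105) was. As in WT, the block also left out libraries whose number was not found in every group. The call of Ccne1 was also lost without M-TTPΔARE replicate 1 (edgeR adjusted p = 0.0509) or replicate 2 (edgeR adjusted p = 0.0596). Beside these values, HSC markers summed to 4525 to 4828 CPM in M-TTPΔARE and 3427 to 3499 CPM in Y-TTPΔARE HSCs, with 8 of 13 called higher, T and NK cell markers to 13.8 to 31.4 and 96.4 to 180.3 CPM, with 6 of 10 called lower, and erythroid markers to 104 to 131 and 155 to 409 CPM, with 1 of 10 called lower. Lymphoid-primed markers summed to 76.9 to 79.1 CPM in M-TTPΔARE and 109 to 121 CPM in Y-TTPΔARE HSCs. Neutrophil and monocyte markers summed to 399.8 to 422.7 and 469.5 to 534.8 CPM. Markers of the LSK gate were higher in M-TTPΔARE, with 2498 to 2827 and 2363 to 2480 CPM. None of these sums overlapped, and their part in the age differences was not tested.

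**Figure D5:**
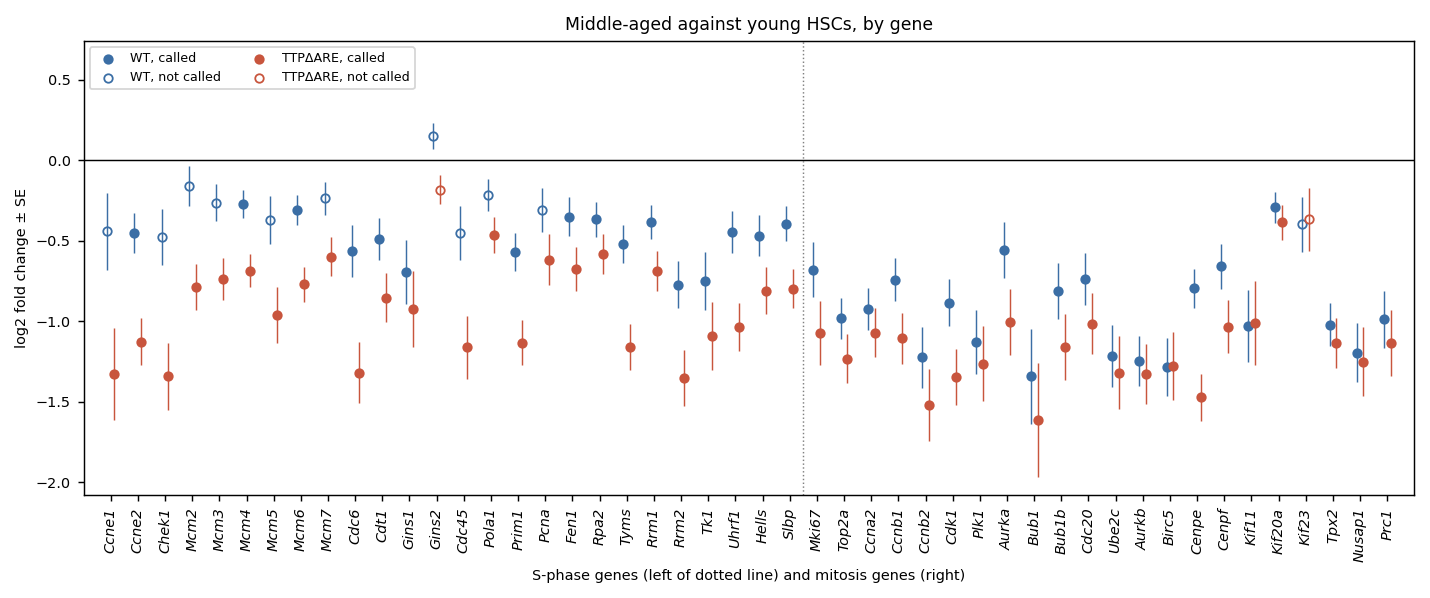
Log2 fold change ± SE of middle-aged against young HSCs for each of the 48 genes, with WT in blue and TTPΔARE in red, filled circles for called genes and open circles for genes not called. Red circles lie below blue ones for nearly all S-phase genes, and blue and red lie closer together for most mitosis genes.

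The difference of the age effect between genotypes was not called for any of the 48 genes by edgeR or DESeq2, against 0.0177% of the 28189 genes called lower and 0.00355% called higher. At an unadjusted p under 0.05, 17 S-phase genes and Cenpe had a more negative age difference in TTPΔARE and none a more positive one, against 12.2% and 2.87% of the genes over the limit, and the median was -0.44 in S-phase and -0.20 in mitosis genes. The median over the genes above the limit was -0.11. Cenpe had 16.6, 16.7, 20.9 and 20.9 CPM in Y-WT and 8.55, 9.12, 11.1, 11.3 and 13.4 CPM in M-WT HSCs, so that the middle-aged values were higher in all M-WT than in all M-TTPΔARE libraries and the young ones overlapped (-0.68 ± 0.19, SE, edgeR adjusted p = 0.225). Ccne2 had 35.4, 27.1, 33.3 and 31.7 CPM in Y-TTPΔARE and 14.1, 14.9 and 15.9 CPM in M-TTPΔARE HSCs, and it differed in the same direction (-0.67 ± 0.19, SE, edgeR adjusted p = 0.226). This interaction shares its libraries with the genotype comparison of middle-aged HSCs, in which all 26 S-phase genes had negative values.

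Related genes outside the 48 were read from 4 lists. Of 46 other DNA replication genes, 41 were called higher in MPP3 cells than in HSCs of WT mice and none lower, with the largest differences in Ticrr (2.09), Mcm10 (2.07) and Lig1 (1.69), which act in helicase activation, in initiation and in joining of DNA ends. Of 68 other mitosis genes 66 were called higher, led by Espl1 (2.84), the separase that parts sister chromatids, Ect2 (2.64) and Cep55 (2.56), which act in cytokinesis. In TTPΔARE mice 40 and 66 of the 2 lists were called higher. Of the 13467 genes over the limit 20.1% were called higher in WT and 13.7% in TTPΔARE mice. Across age in WT HSCs 18 of 46 replication genes and 59 of 68 mitosis genes were called lower, and in TTPΔARE HSCs 30 and 56, with 1 mitosis gene called higher in each genotype. Of the 13667 genes over the limit 6.32% were called lower with age in WT and 5.69% in TTPΔARE HSCs. Among all genes tested 8.57% and 3.11% were called higher. Cdc25c (-1.99), Kif14 (-1.99) and Hmmr (-1.62) had the largest falls of the other mitosis genes in WT, and Mcm10 (-1.53) that of the replication genes in TTPΔARE.

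In the genotype comparisons none of the replication and mitosis genes of these lists was called in young HSCs or in MPP3 cells by edgeR. Of all genes tested 0.0123% were called in each direction in young HSCs. In MPP3 cells 0.137% were called lower and 1.58% higher, and in middle-aged HSCs 0.71% lower and 0.7% higher. In middle-aged HSCs Dnmt1 (-0.41, edgeR adjusted p = 0.0136), the methyltransferase that Uhrf1 recruits, and Atad2 (-0.37, edgeR adjusted p = 0.0411) were called lower among the replication genes, and Gas2l3 (0.45, edgeR adjusted p = 0.0417) higher among the mitosis genes. Atad2 was also called in the interaction of age with genotype (-0.60, edgeR adjusted p = 0.0410), in which 0.0177% of all genes tested were called lower.

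Of 18 G1 cyclins, CDKs and E2F factors, 12 were called higher and 1 lower in MPP3 cells than in HSCs of WT mice, with the largest differences in E2f8 (2.34), E2f2 (1.76) and Cdk6 (1.67). In TTPΔARE mice 10 were called higher and 1 lower. Of the genes over the limit 20.1% in WT and 13.7% in TTPΔARE mice were called higher. The share of all genes called lower between the cell types is not given here. Cdk6, the kinase that D cyclins activate in G1, was called lower in M-TTPΔARE than in M-WT HSCs (-0.75, edgeR adjusted p = 0.0330). With age 1 was called higher and 3 lower in WT HSCs, and none higher and 6 lower in TTPΔARE HSCs, beside 8.57% of all genes tested called higher and 3.07% lower in WT, and 3.11% and 2.76% in TTPΔARE. E2f8 (-1.17 in WT and -1.45 in TTPΔARE) and E2f1 (-0.59 and -1.31) were called lower, and the repressor E2f8 and the activator E2f1 are both known to act on S-phase genes. Of 19 genes known as brakes on the cycle 17 were tested between the cell types, of which 8 were called higher and 3 lower in MPP3 cells of WT mice and 7 higher and 4 lower in those of TTPΔARE mice. The counts called higher are to be read against the cell type shares given above, and those called lower have no share beside them. Ndn (-2.43) and Cdkn1c (-2.34, coding for the Cdk inhibitor p57) were among those lower in WT MPP3 cells than in WT HSCs, and Cdkn2c (1.88), coding for p18, among those higher. With age 18 brakes were tested, of which 2 were called higher and 1 lower in WT HSCs and 3 higher and 2 lower in TTPΔARE HSCs, to be read against the shares of all genes given above for age in each genotype. In MPP3 cells 3 brakes were called higher in TTPΔARE than in WT, namely Cdkn1a, coding for p21 (1.06, edgeR adjusted p = 0.0417), Btg2 (0.80, edgeR adjusted p = 0.0411) and Btg1 (0.80, edgeR adjusted p = 0.00668). Of the 19023 genes tested there 1.58% were called higher. In middle-aged HSCs Gfi1 (0.61, edgeR adjusted p = 0.00968) and Cdkn1c (0.48, edgeR adjusted p = 0.0163) were called higher and Rbl1 (-0.36, edgeR adjusted p = 0.0269) lower in TTPΔARE. Of the 21136 genes tested there 0.7% were called higher and 0.71% lower.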

How the data were processed

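Bulk mRNA-seq of 24 libraries in 6 groups, taken from the sample titles, was analysed. Per the study's methods, the authors ran Trim Galore! and Cutadapt on the reads, mapped them with STAR to mm10 with GENCODE M22 and counted them with featureCounts; the strand and multimapping settings of the counting are not given in the sources used here. The methods name a SMART-seq v4 kit with Nextera XT and the labels another SMARTer kit, which is not settled here. The deposited values are raw counts per gene symbol for 55376 genes, without normalization, and libraries were deposited unpooled. Totals ran from 24261371 to 39934554, and the lowest count of any of the 48 genes in a library was 67. Counting error was not separated from the spread between libraries. No libraries were identical.

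All fits used edgeR 4.0.16 in R 4.3.3. Genes were kept by filterByExpr (minimum count 10, minimum total count 15), scaled by TMM and tested with edgeR's quasi-likelihood F test with Benjamini-Hochberg adjustment over all genes tested. The call limits (adjusted p 0.05, fold change 1.2, average logCPM 1.5) are the study's, except that interactions had no fold limit. Genotype was compared within its own 2 groups, cell type in a joint fit of 16 young libraries and age in a joint fit of 16 HSC libraries, and interactions were taken from those 4-group fits. The standard error is the log2 fold change divided by the square root of F. All 4 Y-TTPΔARE MPP3 libraries were used, whereas the study used 3. CPM were scaled by TMM over the 24 libraries. Gene lengths and overlaps come from GENCODE M21 on GRCm38, another release than that of the counting. The fits were also run on simulated counts, drawn with the same spread for every gene. Those counts held no outlying libraries and no shared replicate effect, and no result here rests on them.

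The 48 genes, their roles and the gene lists were chosen with earlier results of these data known. Named for values per library was the gene of largest WT cell type difference of each role. So were the genes of smallest p in each genotype, age and interaction comparison, whichever phase they act in. Mki67, Top2a, Ccnb1, Cdk1, Mcm5 and Ccne1 were named as well. Other genes outside the 48 were the 3 called ones of largest change per list. Gene names outside this rule that stand beside a count were chosen after their values were seen. Deviations from the group means of Y-TTPΔARE HSC and MPP3 libraries of equal number correlated at 0.214 to 0.298 over 13077 genes for all 4 numbers. For Y-WT HSC and MPP3 libraries the values ran from 0.066 to 0.198. Between middle-aged and young TTPΔARE HSCs they ran from -0.261 to 0.039. Libraries of unequal number were not compared, so that pairing by number was not shown, and the main fits did not use the number. Alternatives were DESeq2 1.42.0, edgeR's likelihood ratio test, RLE scaling, library totals, no filter, no fold or logCPM limit, the replicate number as a block, other libraries in the fit and leaving out each library. The replicate block kept only libraries whose replicate number was found in every group of the fit. It thus also left out libraries in the age fits and in middle-aged HSCs. Keeping only genes over the logCPM limit before scaling was chosen after seeing the data.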

Additional observations from a re-analysis of the deposited data

Results flagged for a closer look

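Of 120 groups of 4 or 5 libraries tested by Dixon's rule for a library far from the others, 10 were flagged, and chance flags about 1 in 20. In Y-WT HSCs, Ccne2 had 31.2 CPM in replicate 1 against 24.7 to 25.4 in the others, and Uhrf1 81.6 CPM in replicate 3 against 92.9 to 93.9. Among M-WT HSCs, replicate 2 was low in Mki67 (24.0 CPM against 34.7 to 37.1) and Ccnb1 (13.4 CPM against 17.2 to 18.7). Replicate 3 of the same group was high in Tyms (61.1 CPM against 39.6 to 45.2) and Ccne1 (7.16 CPM against 3.77 to 4.59). Y-TTPΔARE MPP3 replicate 4 was high in Gins2 (179.5 CPM against 87.2 to 101.6) and Ccne1 (32.1 CPM against 16.1 to 18.8). In Y-TTPΔARE HSCs replicate 2 was low in Mcm5 (128.7 CPM against 175.8 to 185.3) and in the summed S-phase level (2519.8 CPM against 3059.8 to 3073.4). The cause was not tested.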

How the results depend on the processing

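Of 1286 values of single genes recomputed under the alternatives, 8 changed sign, all in genotype comparisons of genes that were not called. They were Mki67 in young HSCs without Y-TTPΔARE replicate 3 (-0.029, against 0.32 without replicate 2), Top2a in middle-aged HSCs with the replicate block (0.016) and without M-TTPΔARE replicate 1 (0.012, against -0.21 without replicate 3), Ccnb1 in middle-aged HSCs with the replicate block (0.048), with all 24 libraries in the fit (0.020), without M-WT replicate 4 (0.00152) and without M-TTPΔARE replicate 1 (0.0105, against -0.099 without M-WT replicate 2), and Cdk1 in MPP3 cells without Y-TTPΔARE replicate 4 (-0.18, against 0.26 without replicate 2). The 48 calls of each cell type comparison were made under every alternative. The median of the 48 genes in WT moved from 1.73 to 1.52 with library totals and to 1.58 with only genes over the logCPM limit. The number called lower in M-TTPΔARE against M-WT HSCs, 3 as reported, was 14 with DESeq2, 1 with the likelihood ratio test, 5 with RLE scaling or with only genes over the limit, 17 without the filter, and 0 with library totals, with the replicate block or with all 24 libraries in the fit, and it ran from 0 to 8 when single libraries were left out. In MPP3 cells 1 gene was called lower with all 24 libraries. With age in WT, 19 were called with the replicate block, against 37, and 23 to 40 when single libraries were left out. With the replicate block 1 gene was called lower in the interaction of cell type and genotype, and with age the S-phase genes called lower numbered 1 against 16 in WT and 13 against 25 in TTPΔARE HSCs, while the block moved no other count of called genes than those given here by over 1.5 times. In the age fits and in middle-aged HSCs the block also left out libraries whose number was not found in every group. The part of the block in these counts was not separated from that of the libraries left out. Equal replicate numbers were not shown to pair libraries, and the main fits did not use the replicate number. In each of the 4 young groups the mitosis sum, as a percent of the S-phase sum, was higher in replicates 3 and 4 than in replicates 1 and 2. The cause of the moves under the alternatives was not tested. With library totals the median over genes above the limit moved from 0.09 to -0.02 with age in WT. Counting error was not separated from the spread between libraries, and with 3 to 5 libraries a group both limit the precision.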
